A study of Mus musculus with 5 samples.

Results

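The 37 genes described here encode the core components of PI3K, AKT and mTOR signaling. They were taken by symbol from the 23478 genes of the count table and cover the PI3K catalytic and regulatory subunits, inositol lipid enzymes, docking proteins, AKT and its kinase and phosphatases, the mTOR complexes, TSC and RHEB, the S6 kinases, the 4EBP proteins with eIF4E, GSK3 and AMPK. The RNA-Seq data are 5 libraries of GFP-sorted cells from mouse lung at P6, 2 from control and 3 from Igf1r-deleted pups (the mutants), after tamoxifen at 100 ug per pup on each of P0 and P1. All pups carried Gli1-CreERT2, a tamoxifen-dependent Cre driven by the Hedgehog target gene Gli1, and the Rosa26-eGFP reporter, which Cre turns on. Controls were Igf1r Flox/Wildtype and mutants were Igf1r Flox/Flox, so the controls also carried Cre and a floxed allele and could lose that copy. Cells in which Cre was never active keep Igf1r in both genotypes and were not sorted for. The background was mixed and both sexes were used, and the number of pups behind each library is not given in the sources used here, so the p-values measure the spread between these libraries only.

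IGF1R, the receptor of insulin-like growth factors, recruits docking proteins when it is activated, and these bring PI3K to the membrane. PI3K makes the lipid PIP3, which draws AKT to the membrane, where PDK1 (Pdpk1) and the mTOR complex that holds RICTOR phosphorylate it. AKT then restrains GSK3, FOXO factors and the TSC complex, and with TSC restrained the GTPase RHEB turns on the mTOR complex that holds RAPTOR, which drives protein synthesis through S6 kinases and 4EBP proteins. Most of this regulation works on proteins and lipids by phosphorylation, while the data here are RNA levels.

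Library totals were 35116766 to 37597857 counts, and no gene of the pathway core had fewer than 115 counts in any library. Igf1r itself had 324 CPM (counts scaled by TMM to a common library size) in each control and 140, 177 and 194 CPM in mutants 1, 2 and 3. The labels call the cells fibroblasts. The summed level of 8 lung mesenchyme markers was 24300 and 26100 CPM in controls and 25600, 19600 and 22600 CPM in mutants, whereas 11 epithelial markers summed to between 500 and 1110 CPM, 9 endothelial markers to between 263 and 761 CPM and 9 hematopoietic markers to between 199 and 581 CPM. Xist was at 170 and 435 CPM in mutants 1 and 3, which had almost no counts of Y-linked genes, and at no more than 4.09 CPM in the other libraries, so no control library had the pattern of female pups. For 32 of the 37 genes control 1 lay farther from the mean of the mutants than control 2 did. This was not counted over all genes. The median absolute log2 fold change of all genes, mutant over control, was 0.19. It was 0.16 without control 1 and 0.26 without control 2, so the distance of control 1 was not particular to the pathway core.

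Most of the pathway core differed little between the genotypes. In the mutants 6 of the 37 genes changed at an unadjusted p-value under 0.05 in edgeR's quasi-likelihood test, or 16.2%, against 12.4% of all 15298 genes tested. Pik3r1, Ipmk, Deptor and Eif4ebp2 fell, and Pik3r3 and Magi1 rose, against a background of 6.75% of genes called lower and 5.65% called higher. No gene of the 37 passed at an adjusted p-value under 0.05, as no gene of the whole table did in edgeR's quasi-likelihood test after Benjamini-Hochberg adjustment, where 1897 had an unadjusted p under 0.05. Of the 6, all but Eif4ebp2 also met a rule adapted from the one in the study's methods, here a log2 fold change of 0.5 or more in size, an unadjusted edgeR p under 0.05 and a CPM above 1, where the study used DESeq and FPKM. Of all genes tested 5.82% met it. With the minimum level set on CPM per kilobase, which is nearer to FPKM, 5 of the 37 and 684 of 14508 genes met it. DESeq2's Wald test called 1.7% of the 11735 genes that it gave an adjusted p, at under 0.05. Of the 37 it called 2, Ipmk and Pik3r1. Pik3r1, Ipmk, Pik3r3 and Magi1 are also genes the study chose for display from these same libraries, so their direction here is not independent evidence. In sorted bulk RNA, fewer cells of a type and less RNA per cell cannot be told apart.

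The median log2 fold change of the 37 genes was 0.031, beside 0.015 for all genes tested, with 15 genes lower and 22 higher. This balance was not stable, since 21 were lower and 16 higher with length and GC offsets (median −0.0080), 11 and 26 with library totals (median 0.11) and 19 and 18 without control 1. Their median absolute log2 fold change was 0.13, beside 0.19 for all genes, which include genes with lower counts than any of the 37. Fitted to the 14123 genes with at least 10 counts in every library, these medians were 0.14 and 0.17. Genes matched in level to the 37 were not compared. For 25 of the 37, or 67.6%, the log2 fold change lay within 0.2 of 0, which held for 51.9% of all genes tested. The genotypes did not overlap for 14 of the 37, or 37.8%, of which 5 were lower and 9 higher in the mutants, against 31% of all genes. Among the 31 genes that did not pass, the 95% interval of the change lay within a 1.5-fold difference in either direction for 26 and within a 2-fold difference for 30.

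**Figure D1:**
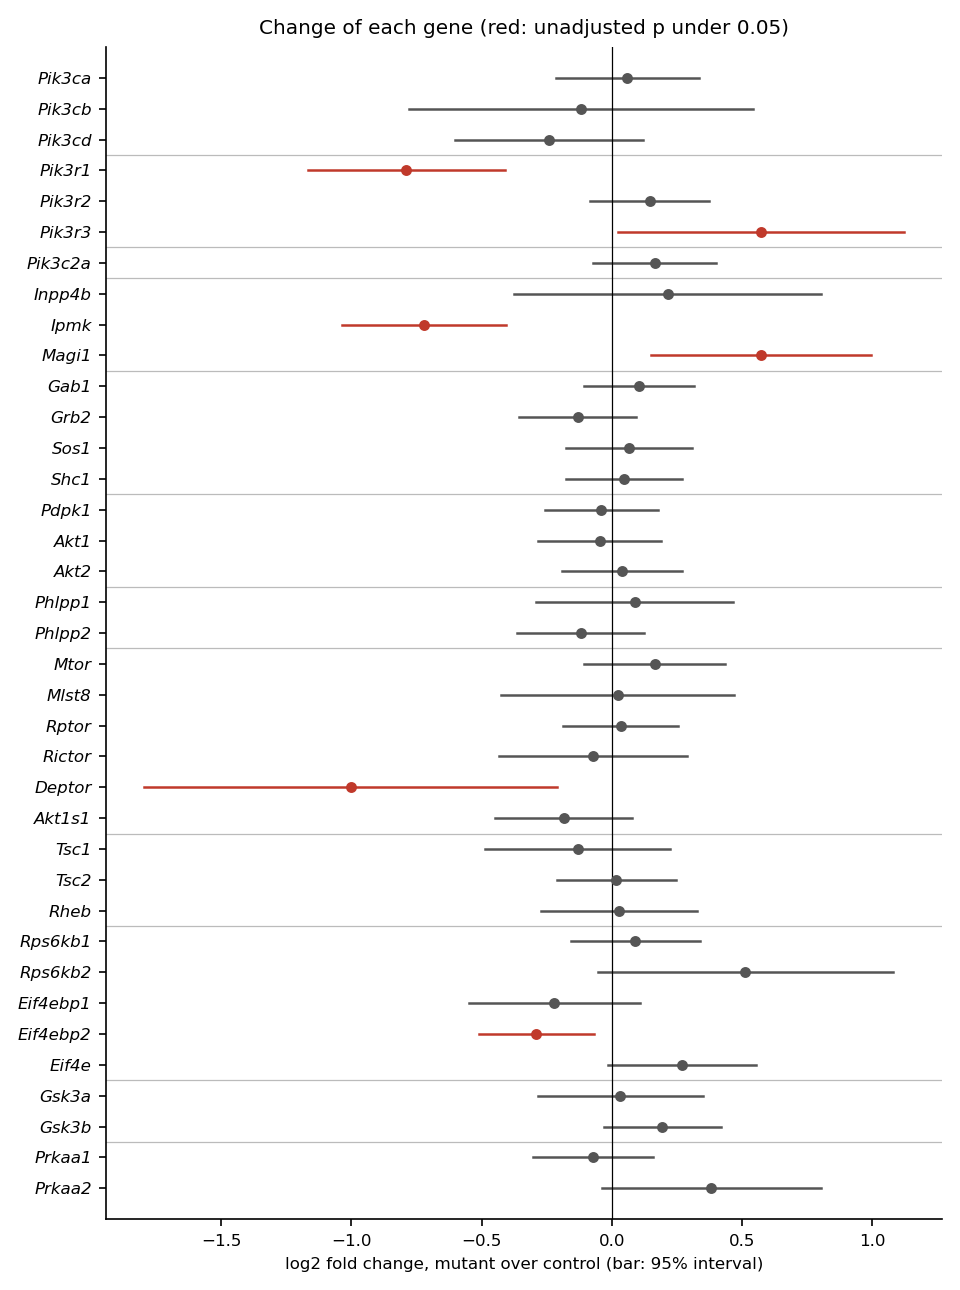
Log2 fold change, mutant over control, of each of the 37 genes (points) with its 95% interval from edgeR's quasi-likelihood fit (bars), ordered by role from the PI3K subunits at the top to AMPK at the bottom, with grey lines between roles. The 6 genes in red had an unadjusted p-value under 0.05, and the intervals of most others were narrow and spanned 0.

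**Figure D2:**
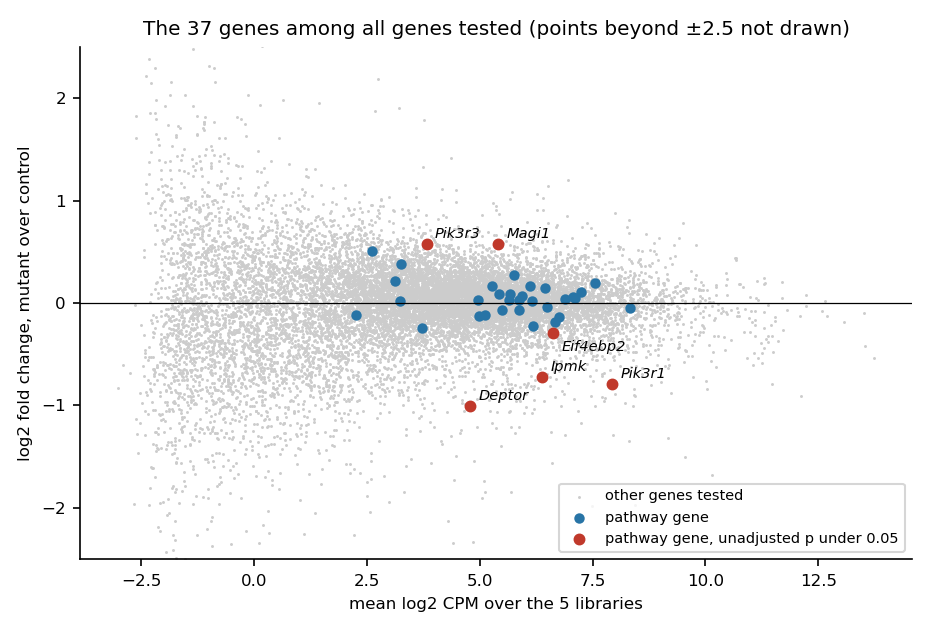
Log2 fold change, mutant over control (vertical axis), against the mean log2 CPM over the 5 libraries (horizontal axis) for all 15298 genes tested (grey) and the 37 pathway genes (blue, or red where the unadjusted p-value was under 0.05). The pathway genes lie at middle to high levels and most are close to 0, with Pik3r1, Ipmk and Deptor below and Pik3r3 and Magi1 above.

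Class IA PI3K is a dimer of a catalytic subunit and a regulatory subunit that holds and stabilizes it. The catalytic genes were Pik3ca (p110α), Pik3cb (p110β) and Pik3cd (p110δ, best known from leukocytes), and none of the 3 passed the test. Pik3ca had 130 and 134 CPM in controls and 131, 126 and 156 CPM in mutants, with a log2 fold change of 0.06 (95% interval −0.22 to 0.33). The genotypes overlapped, and mutant 3 was the only one above both controls. Pik3cb had 4.92 and 5.21 CPM versus 4.96, 5.83 and 3.20 CPM (log2 fold change −0.12, 95% interval −0.78 to 0.54), so this low gene leaves the widest margin of the 3. Pik3cd had 15.9 and 13.1 CPM versus 13.4, 11.1 and 12.2 CPM (log2 fold change −0.24, 95% interval −0.60 to 0.12). Per kilobase of exon, which allows different genes to be set side by side, Pik3ca made up 81.6% and 84.0% of the summed catalytic level in the controls and 83.5%, 84.3% and 87.7% in the mutants.

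Of the 3 regulatory subunit genes, Pik3r1 fell, Pik3r3 rose and Pik3r2 did not pass the test. Pik3r1, on chr13:101680563-101768217 of mm10 (minus strand), encodes p85α and its shorter forms. It had 409 and 277 CPM in controls and 206, 191 and 199 CPM in mutants, so all 3 lay below both controls, though the controls were far apart. Pik3r1 fell by 0.79 on the log2 scale (standard error 0.16, unadjusted p = 0.00157, Benjamini-Hochberg adjusted p = 0.354 by edgeR's quasi-likelihood test), a change of −42.1% (95% interval −55.4% to −24.8%). Its adjusted p with DESeq2's Wald test was 0.00287. Without control 1, which leaves a lone control library assumed to vary like the rest, the log2 fold change was −0.49, and without control 2 it was −1.05. The unadjusted p-value stayed under 0.05 with each of the 5 libraries left out in turn.

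Pik3r2, which encodes p85β, had 79.5 and 84.1 CPM in controls and 88.0, 96.3 and 87.0 CPM in mutants. Each mutant lay above both controls, and the log2 fold change of 0.15 (95% interval −0.083 to 0.37) did not pass the test. Pik3r3, on chr4:116221618-116303056 of mm10 (plus strand), encodes p55γ. It had 8.27 and 14.3 CPM in controls and 16.1, 18.6 and 15.8 CPM in mutants, again without overlap and with control 1 far below control 2. Pik3r3 rose by a log2 fold change of 0.57 (standard error 0.23, unadjusted p = 0.0428, Benjamini-Hochberg adjusted p = 0.398 by edgeR's quasi-likelihood test). The log2 fold change of Pik3r3 was 0.23 without control 1 and 1.02 without control 2, and its unadjusted p was under 0.05 in 1 of the 5 fits that left out a library. Of its exon length, 24.3% overlaps the annotated gene Gm49337 on the same strand, so its reads are less certain.

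The share of each regulatory subunit gene also separated the genotypes. The 3 shares sum to a fixed total in each library, so they are not independent, and a fall in Pik3r1 raises the other 2. Per kilobase of exon, Pik3r1 accounted for 66.3% and 54.7% of the sum of the 3 genes in the controls and for 45.8%, 41.6% and 45.3% in the mutants. Pik3r2 accounted for 31.1% and 40.0% against 47.3%, 50.7% and 47.8%. Per kilobase it thus lay above Pik3r1 in each mutant library and below it in each control. This order depends on the exon lengths used, 10079 bases for Pik3r1 and 4176 for Pik3r2, which join the exons of all transcripts. In counts Pik3r1 exceeded Pik3r2 in every library, with ratios of 5.14 and 3.3 in the controls and 2.34, 1.98 and 2.29 in the mutants. The share of Pik3r3 was 2.55% and 5.38% against 6.83%, 7.69% and 6.85%. The shares of all 3 genes did not overlap between the genotypes, with p = 0.1 for each from an exact permutation test (two-sided), the smallest that the 10 splits of 5 libraries allow.

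**Figure D3:**
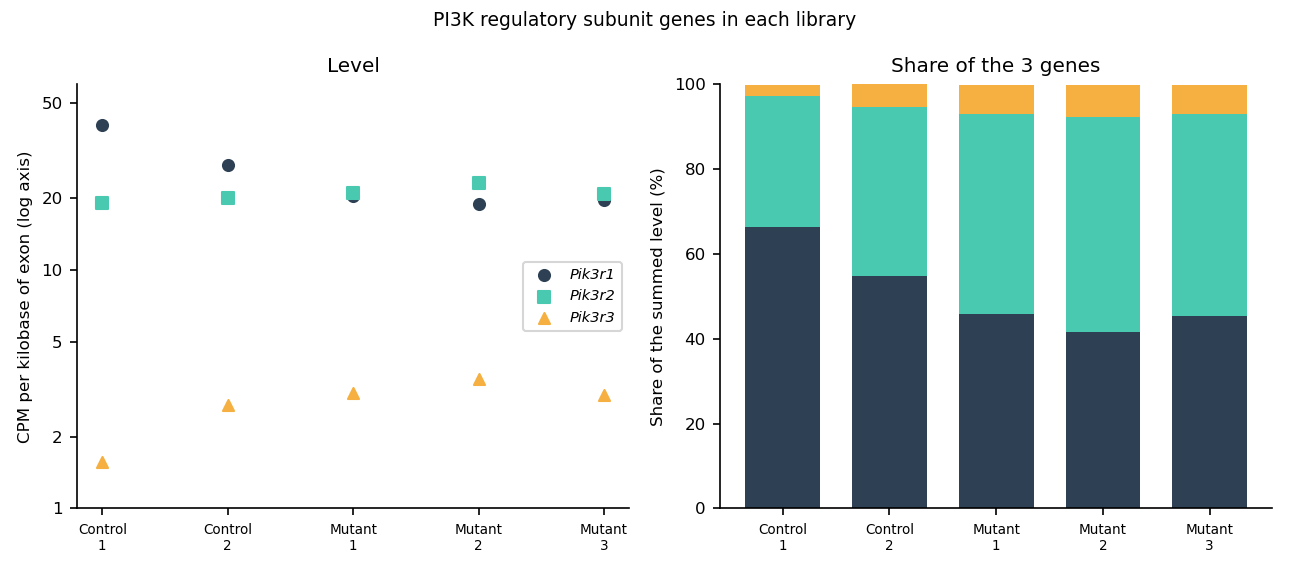
Left, CPM per kilobase of exon (log axis) of the 3 class IA regulatory subunit genes in each of the 5 libraries. Right, the share of each gene in their summed level in percent (same colors, Pik3r1 at the bottom and Pik3r3 at the top). The share of Pik3r1 is 66.3% and 54.7% in the control libraries and 41.6% to 45.8% in the mutants.

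A ratio of 2 genes within a library needs no scaling between libraries. The log2 ratio of Pik3r1 to Pik3r2 counts was 2.36 and 1.72 in the controls and 1.22, 0.99 and 1.19 in the mutants, a difference of −0.91 (standard error 0.26). The log2 ratio of Pik3r1 to Pik3r3 was 5.63 and 4.27 against 3.67, 3.36 and 3.65, a difference of −1.39 (standard error 0.52). Both ratios were lower in every mutant library. Of the 12 pairs of related genes compared, 4 did not overlap. Each of the 4 had p = 0.1 from the exact permutation test (two-sided), the smallest possible, and 0.3 after Benjamini-Hochberg adjustment over the 12. Among all single genes tested 31% did not overlap in CPM. No such share was computed for ratios of gene pairs, and 2 of the 4 pairs share Pik3r1. Thus 4 of 12 cannot be called more than usual. Without control 1 the differences of the 2 Pik3r1 pairs were −0.59 and −0.71, and without control 2 they were −1.23 and −2.06. Summed per kilobase, the regulatory subunits exceeded the catalytic subunits by a ratio of 3.48 and 2.87 in the controls and 2.59, 2.76 and 2.23 in the mutants (p = 0.1, exact permutation test, two-sided). The numerator of this ratio was 61.1 and 50.4 CPM per kilobase in the controls and 43.5 to 45.5 in the mutants, whereas the denominator was 17.6 and 17.5 in the controls and 16.5 to 19.5 in the mutants.

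RefSeq has a start of Pik3r1 at its 5′ end and another inside the gene, and the counts are summed over all of its transcripts. The 250 bases before each of these 2 starts (build GRCm38.p6, minus strand) are shown because Pik3r1 was, per kilobase of exon, the most abundant of the 6 genes that changed. The capitals mark the GC box, GGGCGG or its reverse complement CCGCCC, which SP factors bind.
Pik3r1 first start, chr13:101768218-101768467: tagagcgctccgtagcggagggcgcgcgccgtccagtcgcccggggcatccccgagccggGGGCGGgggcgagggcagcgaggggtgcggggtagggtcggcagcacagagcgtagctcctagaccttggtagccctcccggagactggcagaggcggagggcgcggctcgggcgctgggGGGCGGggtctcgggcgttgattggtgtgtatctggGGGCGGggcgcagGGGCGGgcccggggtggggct
Pik3r1 internal start, chr13:101692631-101692880: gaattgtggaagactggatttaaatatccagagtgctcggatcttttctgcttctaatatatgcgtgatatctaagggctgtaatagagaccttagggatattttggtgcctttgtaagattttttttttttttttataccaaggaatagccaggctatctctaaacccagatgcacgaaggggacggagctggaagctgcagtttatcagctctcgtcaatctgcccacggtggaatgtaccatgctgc
The first window holds 4 GC boxes and is 76.4% G and C, and the internal window holds none and is 42.4% G and C. Which start the reads of Pik3r1 came from was not examined, since the table holds a single count per gene. Windows were found for 34 of the 37 genes, 49 in all. A GC box was present in 57.1% of these and in 32.7% of the 32851 windows of all genes, so the motif is common to the pathway core and to promoters in general. The FOXO motif GTAAACA, searched with its reverse complement, was in 3.17% of all windows and in that of Akt1 among the 37 genes. The E-box CACGTG was in 6.02% of all windows and in those of Eif4e and Rheb. An exact palindromic glucocorticoid response element was in 3 of the 32851 windows, or 0.00913%, and in none of the 49. It is so rare that its absence from the 49 tells nothing about these genes.

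Pik3c2a, a class II PI3K that makes other phosphoinositides in endocytosis, had 62.0 and 68.2 CPM in controls and 74.4, 68.8 and 75.6 CPM in mutants. The genotypes did not overlap, by a margin of under 1 CPM, and the log2 fold change was 0.16 (95% interval −0.071 to 0.40), which did not pass the test. Gm44777 overlaps 12.3% of its exon length on the opposite strand, and whether strand was used in counting is not given in the sources used here.

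Of the 3 genes for inositol lipid enzymes and scaffolds, Ipmk fell, Magi1 rose and Inpp4b did not pass the test. Ipmk encodes inositol polyphosphate multikinase, which phosphorylates soluble inositol phosphates and can also act on phosphoinositides. It lies on chr10:71347763-71433327 of mm10 (plus strand). Its level was 118 and 109 CPM in controls and 80, 60.5 and 66.0 CPM in mutants, and here the controls lay close together, well above every mutant library. Ipmk fell by 0.72 on the log2 scale (standard error 0.13, unadjusted p = 0.000891, Benjamini-Hochberg adjusted p = 0.354 by edgeR's quasi-likelihood test), a change of −39.3% (95% interval −51.2% to −24.6%). DESeq2's Wald test gave an adjusted p of 0.00145. Ipmk had the smallest p-value of the 37 genes, and its log2 fold change ran from −0.85 to −0.64 as each library was left out. Its unadjusted p-value was under 0.05 in every one of those fits.

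The 250 bases before the RefSeq start of Ipmk (build GRCm38.p6, plus strand) are shown beside those of Pik3r1 because the unadjusted p-values of these 2 genes were under 0.05 in every fit that was tried. The capitals mark its only GC box, near the start.
Ipmk, chr10:71347513-71347762: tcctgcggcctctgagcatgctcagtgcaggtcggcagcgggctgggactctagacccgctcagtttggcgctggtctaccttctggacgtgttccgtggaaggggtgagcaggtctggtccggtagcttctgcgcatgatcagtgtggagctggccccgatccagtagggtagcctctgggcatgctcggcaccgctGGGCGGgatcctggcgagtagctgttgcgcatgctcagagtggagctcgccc
This window is 64.4% G and C and held none of the other 3 motifs, which are each uncommon in the windows of all genes.

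Magi1, on chr6:93675455-94283917 of mm10 (minus strand), encodes a scaffold of cell junctions that binds lipid phosphatases. It had 29.9 and 37.7 CPM in controls and 39.8, 54.1 and 56.9 CPM in mutants. Mutant 1 lay only just above control 2, and the other 2 lay well above it. Magi1 rose by a log2 fold change of 0.57 (standard error 0.18, unadjusted p = 0.0148, Benjamini-Hochberg adjusted p = 0.354 by edgeR's quasi-likelihood test), or by 48.8% (95% interval 11% to 99.4%). Without control 1 the log2 fold change was 0.41 and no longer passed. Inpp4b, a phosphatase that acts on a phosphatidylinositol bisphosphate formed downstream of PI3K, had 5.93 and 10.3 CPM versus 8.56, 9.08 and 10.6 CPM. Control 1 was the lowest library and control 2 lay among the mutants, and the log2 fold change of 0.21 became −0.13 without control 1.

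The 4 docking and adaptor genes did not pass the test and moved by little. Gab1, a docking protein that binds p85, had 146 and 145 CPM in controls and 151, 160 and 159 CPM in mutants, above both controls in each (log2 fold change 0.11, 95% interval −0.11 to 0.32). Grb2, the adaptor that links receptors to RAS, had 117 and 110 CPM versus 108, 105 and 97.8 CPM, below both controls in each (log2 fold change −0.13, 95% interval −0.36 to 0.093). Both intervals spanned 0. Sos1, the RAS exchange factor that GRB2 carries, had overlapping levels of 57.7 to 67.6 CPM (log2 fold change 0.07). Shc1, which links phosphorylated receptors to GRB2, ranged from 131 to 147 CPM, also with overlap (log2 fold change 0.05). Of the 31-base sequences of Grb2, 12.1% also occur in other annotated genes (Gm12791 and Gm13542), and of those of Shc1 10.1% do, so a part of their reads could have been placed elsewhere.

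AKT and its activating kinase had nearly the same RNA level in both genotypes. Akt1, the most abundant of the 37 genes per kilobase of exon, had 336 and 324 CPM in controls and 339, 316 and 303 CPM in mutants. Its levels overlapped, and its log2 fold change of −0.05 had a 95% interval of −0.28 to 0.19, or a change of −17.9% to 14.0%. Akt2, the form linked to insulin action, had 114 and 119 CPM versus 128, 118 and 114 CPM (log2 fold change 0.04, 95% interval −0.19 to 0.27). Pdpk1 had 91.5 and 90.6 CPM versus 86.3, 85.8 and 93.3 CPM (log2 fold change −0.04, 95% interval −0.26 to 0.18). The log2 ratio of Akt1 to Akt2 was 1.56 and 1.44 in the controls and 1.41, 1.42 and 1.42 in the mutants, without overlap, a difference of only −0.087 (p = 0.1, exact permutation test, two-sided). Per kilobase, Akt1 made up 82.2% to 83.7% of the sum of the 2 genes over the 5 libraries. Of the 31-base sequences of Akt2, 13.3% also occur in Akt2-ps, a pseudogene, or in Akt1, so its counts are less certain. Phlpp1 and Phlpp2 encode phosphatases that act on AKT. Phlpp1 ranged from 42.3 to 60.2 CPM, both in mutants (log2 fold change 0.09), and Phlpp2 from 32.8 to 39.2 CPM (log2 fold change −0.12), and the genotypes overlapped for both.

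Of the 6 genes of the mTOR complexes, Deptor was the only one to pass the test. Mtor, the kinase itself, had 34.0 and 37.7 CPM in controls and 36.0, 42.6 and 42.0 CPM in mutants (log2 fold change 0.16, 95% interval −0.11 to 0.43). Rptor, which encodes RAPTOR, had 55.7 and 60.4 CPM versus 57.8, 61.3 and 59.0 CPM (log2 fold change 0.03). Rictor had 52.0 and 42.0 CPM versus 39.6, 42.2 and 52.2 CPM (log2 fold change −0.07). None of these separated the genotypes. Mlst8, a subunit of both complexes, ranged from 7.71 to 11.1 CPM (log2 fold change 0.02), and 22.5% of its exon length overlaps Bricd5 on the opposite strand. Akt1s1 encodes PRAS40, an inhibitor of mTOR that AKT phosphorylates, and had 118 and 104 CPM versus 106, 90.5 and 95.5 CPM (log2 fold change −0.19, 95% interval −0.45 to 0.077).

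Deptor encodes a protein that binds mTOR and inhibits it, and lies on chr15:55112317-55259271 of mm10 (plus strand). Its level was 63.1 and 24.3 CPM in controls and 22.5, 20 and 22.9 CPM in mutants. Control 1 stood far above all others, and control 2 lay just above the highest mutant library. Deptor fell by 1.0 on the log2 scale (standard error 0.34, unadjusted p = 0.0198, Benjamini-Hochberg adjusted p = 0.354 by edgeR's quasi-likelihood test), the largest log2 fold change of the 37 genes. Without control 1 the log2 fold change was −0.16 and did not pass, and without control 2 it was −1.54. This call thus rests on control 1. The call was also lost without mutant 2.

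The TSC complex and RHEB, the switch between AKT and mTOR, did not separate the genotypes. Tsc1 had 37.7 and 29.1 CPM in controls and 26.6, 31.1 and 33.8 CPM in mutants (log2 fold change −0.13, and 0.062 without control 1). Tsc2 ranged from 68.7 to 76.2 CPM (log2 fold change 0.02, 95% interval −0.21 to 0.25). Rheb ranged from 44.8 to 56.8 CPM (log2 fold change 0.03, 95% interval −0.27 to 0.32). In each of the 3 genes a mutant library held the lowest value, and in Tsc2 and Rheb also the highest.

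**Figure D4:**
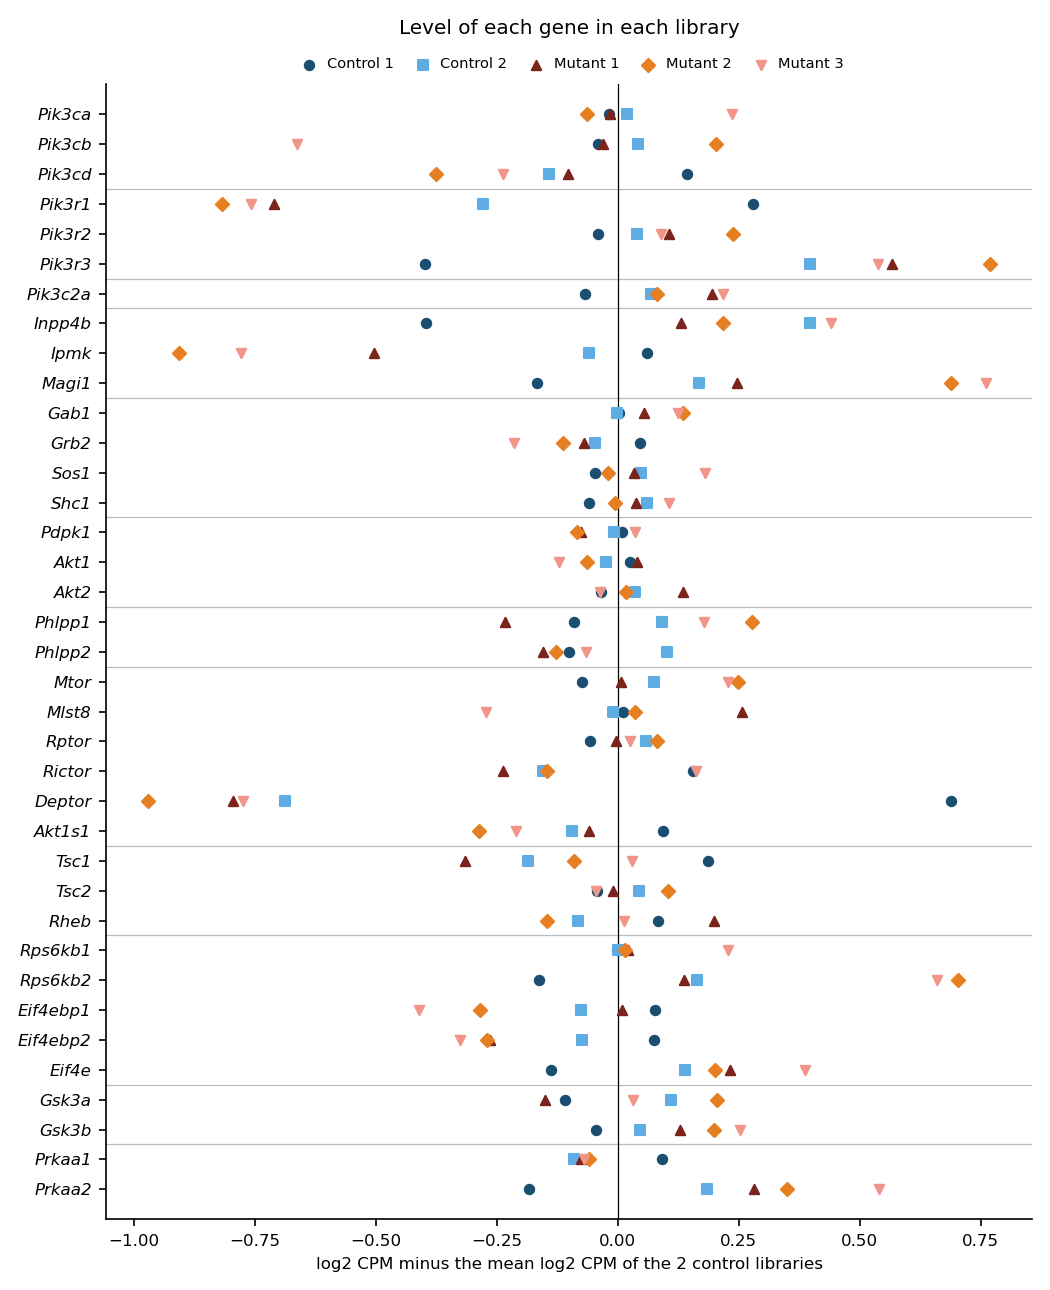
Level of each of the 37 genes in each library, as log2 CPM minus the mean log2 CPM of the 2 control libraries (horizontal axis), ordered by role from PI3K subunits at the top to AMPK at the bottom. Blue points are control libraries and red, orange and pink points mutants. For Pik3r1, Pik3r3 and Deptor the controls lie far apart, and for Ipmk they lie close together above the mutants.

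Downstream of mTOR, Eif4ebp2 fell and the S6 kinase genes, Eif4ebp1 and Eif4e did not pass the test. Eif4ebp2 encodes a repressor that holds the cap-binding protein eIF4E and releases it when mTOR phosphorylates it. It lies on chr10:61428491-61452661 of mm10 (minus strand). Eif4ebp2 had 117 and 106 CPM in controls and 92.4, 92.0 and 88.5 CPM in mutants, which were close together and below both controls. Eif4ebp2 fell by 0.29 on the log2 scale (standard error 0.094, unadjusted p = 0.0173, Benjamini-Hochberg adjusted p = 0.354 by edgeR's quasi-likelihood test), a change of −18.2% (95% interval −29.8% to −4.61%). The log2 fold change was −0.22 without control 1 and −0.27 without mutant 3, and passed in neither fit. Eif4ebp1, which encodes 4EBP1, had 84.7 and 76.2 CPM versus 80.7, 65.9 and 60.4 CPM (log2 fold change −0.22, 95% interval −0.55 to 0.11), with mutant 1 between the controls.

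Eif4e had 43.8 and 53.1 CPM in controls and 56.6, 55.4 and 63.0 CPM in mutants. All 3 lay above both controls, and the log2 fold change of 0.27 (95% interval −0.015 to 0.55, unadjusted p = 0.0603 by edgeR's quasi-likelihood test) did not pass. The ratio of the sum of Eif4ebp1 and Eif4ebp2 to Eif4e, per kilobase and without the low gene Eif4ebp3, was 8.07 and 5.99 in the controls and 5.60, 4.98 and 4.08 in the mutants (p = 0.1, exact permutation test, two-sided). The genotypes did not overlap in this ratio, but control 2 lay nearer to the mutants than to control 1. Rps6kb1, the main S6 kinase gene, had 41.1 and 41.2 CPM versus 41.7, 41.5 and 48.1 CPM (log2 fold change 0.09, 95% interval −0.16 to 0.34). Rps6kb2 had 4.38 and 5.48 CPM versus 5.38, 7.97 and 7.74 CPM (log2 fold change 0.51, 95% interval −0.055 to 1.08). Mutant 1 lay between the controls for Rps6kb2, and 23.7% of the exon length of this gene overlaps Ptprcap and Coro1b on the opposite strand.

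GSK3 is held inactive by AKT, and AMPK opposes mTOR when energy is low. Gsk3b had 168 and 179 CPM in controls and 190, 199 and 207 CPM in mutants (log2 fold change 0.19, 95% interval −0.032 to 0.42, unadjusted p = 0.0820 by edgeR's quasi-likelihood test). All 3 lay above both controls without passing the test. Gsk3a ranged from 27.9 to 35.7 CPM with full overlap (log2 fold change 0.03), and 28.3% of its exon length overlaps 9130221H12Rik on the opposite strand. Of the AMPK catalytic genes, Prkaa1 had 64.0 and 56.4 CPM versus 57.0, 57.6 and 57.2 CPM (log2 fold change −0.07). Prkaa2, the lower of the pair per kilobase, had 7.14 and 9.22 CPM versus 9.86, 10.3 and 11.8 CPM (log2 fold change 0.38, 95% interval −0.040 to 0.80, unadjusted p = 0.0697 by edgeR's quasi-likelihood test). The log2 ratio of Prkaa1 to Prkaa2 was 3.16 and 2.61 in the controls and 2.53, 2.48 and 2.28 in the mutants, a difference of −0.46 without overlap (p = 0.1, exact permutation test, two-sided), and −0.18 without control 1.

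Per kilobase of exon, mean levels over the 5 libraries spanned 118-fold across the 37 genes. Akt1 was highest, at 80.5 ± 2.0 CPM per kilobase in the controls (SD, n = 2) and 77.9 ± 4.50 in the mutants (SD, n = 3). Grb2, Eif4ebp1, Akt1s1 and Gab1 followed, with means of 28.6 to 38.9 CPM per kilobase in the controls. Pik3r1 was the sixth by the mean of all libraries, at 34.0 ± 9.20 CPM per kilobase in the controls (SD, n = 2) and 19.7 ± 0.736 in the mutants (SD, n = 3). Pik3cb and Inpp4b were lowest, both under 1 CPM per kilobase in every library. Rps6kb2 and Prkaa2 lay next above them.

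The 6 genes that passed differed in how far they depended on a library. Left out in turn, control 1 brought 5 of the 6 log2 fold changes nearer to 0 than any other library did, and Ipmk and Pik3r1 alone kept an unadjusted p-value under 0.05. Without control 1 the median absolute log2 fold change of the 37 genes was 0.094, beside 0.16 for all genes. Without control 2 it was 0.19, beside 0.26. Without mutants 1, 2 and 3, in turn 7, 4 and 4 of the 37 genes passed at an unadjusted p under 0.05. In the same fits 3183 of 15138, 993 of 15100 and 1113 of 15153 of all genes passed, so the numbers moved in the whole table. With Xist as a covariate or with library totals as the scaling Eif4ebp2 did not pass, and with length and GC offsets Pik3r3 did not. All 6 kept their direction in every one of these fits and under each change of scaling, filter, test or covariate that was tried.

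**Figure D5:**
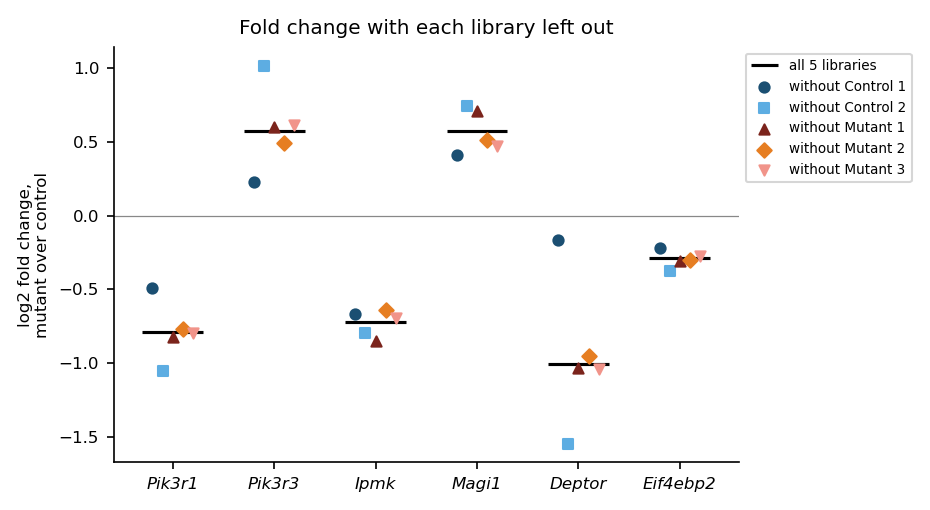
Log2 fold change, mutant over control, of the 6 genes with an unadjusted p-value under 0.05, in all 5 libraries (black bars) and with each library left out (points). Ipmk stays between −0.85 and −0.64, whereas Deptor moves from −1.54 to −0.16 and Pik3r3 from 0.23 to 1.02 with the control library that is left out.

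Pik3r1 is also a member of a list of glucocorticoid-induced genes. The other 16 genes of that list summed to 6510 and 3780 CPM in controls and 2840, 2090 and 2440 CPM in mutants, and 14 of the 16 fell at an unadjusted p-value under 0.05 (median log2 fold change −1.23). A list of 20 immediate early and dissociation response genes summed to 31100 and 26400 CPM versus 20400, 19200 and 22500 CPM, and 13 of the 20 fell (median −0.51). Of all genes tested 6.75% were called lower. Both lists were chosen with earlier results of these data known, so their fall is not independent evidence. Both sums were higher in each control than in any mutant library, and highest in control 1. The same order held for all 5 of the 37 genes that were lower in the mutants without overlap, namely Pik3r1, Ipmk, Grb2, Deptor and Eif4ebp2. These 5 were picked for lying below both controls, so that part of the order was fixed. Control 1 lay farther from the mean of the mutants than control 2 for 32 of the 37 genes. Its place is thus not particular to these 5. The genotypes overlapped in the sum of myofibroblast markers and not in that of lipofibroblast markers. The sum of 10 myofibroblast markers was 4510 and 4780 CPM versus 4740, 5480 and 5340 CPM (3 rose and 1 fell), and that of 7 lipofibroblast markers was 5800 and 4550 CPM versus 4420, 3910 and 4490 CPM (3 fell). Of 7 pericyte markers 2 fell, with sums of 857 to 1090 CPM, and of 5 mesothelial markers none passed, with sums of 214 to 304 CPM. Of 8 lung mesenchyme markers 1 fell, of 11 epithelial markers 1, of 9 endothelial markers none and of 9 hematopoietic markers 2, where 6.75% of all genes tested were called lower. Called or not, all 9 hematopoietic markers had a log2 fold change below 0 (median −0.69), as did 10 of 11 epithelial markers (median −0.35). This held for 5 of 9 endothelial markers (median −0.15), 6 of 8 lung mesenchyme markers (median −0.10) and 47.7% of all genes tested. Among erythroid genes, 5 of 6 were under 1 CPM in every library. The part of these lists in the changes of Pik3r1, Deptor or the other pathway genes was not tested.

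Beyond the core, 131 further genes of the pathway were listed by role, of which 129 were in the table and 128 were tested. Of the 128, 18 fell and 10 rose at an unadjusted p-value under 0.05, 21.9% in all, against 12.4% of all genes tested, and none passed at an adjusted p-value under 0.05 by edgeR's quasi-likelihood test after Benjamini-Hochberg adjustment. DESeq2's Wald test gave an adjusted p for 115 of the 128 and called 7 of these under 0.05. It called 1.7% of the 11735 genes with an adjusted p. The median log2 fold change was 0.036 and the median absolute change 0.15, and the genotypes did not overlap for 48, or 37.5%, against 31% of all genes. Without control 1 the median absolute change of the 128 was 0.13, beside 0.16 for all genes. Without control 2 it was 0.23, beside 0.26. With Xist as a covariate 19 of the 128 passed, where 1740 of 15298 of all genes did. Without mutant 2, 17 of 127 passed, where 993 of 15100 of all genes did. Without mutant 3, 18 of 128 passed, where 1113 of 15153 did. Irs2, Sgk1, Foxo3, Lpin1 and Eef2 kept an unadjusted p under 0.05 with each of the 5 libraries left out. The counts by role below stand beside 6.75% of all genes called lower and 5.65% called higher. Irs2, Sgk1 and Ddit4, described next, are also on the list of glucocorticoid-induced genes, and Irs2 and Foxo3 are among the genes the study chose for display from these libraries.

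Of 12 adaptor genes near the receptor, 1 fell and 1 rose. Irs2, a docking protein of the insulin and IGF receptors, had the smallest p-value of the 128, with 585 and 387 CPM in controls and 297, 245 and 276 CPM in mutants (log2 fold change −0.83, standard error 0.18, and −0.51 without control 1). Of 9 other PI3K subunits and inhibitors, 1 fell and 1 rose. Pik3r5, a regulatory subunit of class IB PI3K, fell from 8.12 and 5.16 CPM to 4.45, 3.22 and 2.84 CPM (log2 fold change −0.92, and −0.56 without control 1). Pik3r4, the regulatory subunit of class III PI3K, had 45.5 and 47.9 CPM in controls and 56.4, 56.2 and 51.9 CPM in mutants (log2 fold change 0.23, unadjusted p = 0.0456 by edgeR's quasi-likelihood test), and did not pass with any single library left out. The control libraries were the 2 highest for Irs2 and Pik3r5 and the 2 lowest for Pik3r4. Of 16 phosphoinositide enzymes and scaffolds, 4 fell and 1 rose. Inpp5d (SHIP1, a phosphatase of PIP3 best known from blood cells) fell by 0.74 and Inpp5k by 0.37 on the log2 scale, and the kinase gene Pip4k2a rose by a log2 fold change of 0.45. Without control 1 the log2 fold change was −0.72 for Inpp5d, −0.21 for Inpp5k and 0.25 for Pip4k2a.

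Of 10 AKT regulators and SGK genes, Sgk1 and Trib1 fell and Trib2 rose. Sgk1, an AKT-related kinase that glucocorticoids induce, had 129 and 75.1 CPM in controls and 57.8, 54.9 and 39.4 CPM in mutants (log2 fold change −1.01, standard error 0.25, and −0.57 without control 1). The pseudokinase gene Trib1 had a log2 fold change of −0.65, or −0.36 without control 1. Trib2, a related pseudokinase gene, had a log2 fold change of 0.55, or 0.31 without control 1. Of 12 AKT substrates, Foxo3 and Foxo1, which encode transcription factors that AKT keeps out of the nucleus, fell by 0.72 and 0.43 on the log2 scale (log2 fold changes of −0.38 and −0.15 without control 1), and Gys1, muscle glycogen synthase, rose by a log2 fold change of 0.32.

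Of 7 partners of TSC and RHEB and stress inputs to them, 3 fell. Ddit4 (REDD1), which restrains mTOR under stress, had 57.1 and 35.8 CPM in controls and 29.8, 25.1 and 18 CPM in mutants (log2 fold change −0.93, standard error 0.25, and −0.56 without control 1). Sesn1, which encodes a sestrin, had 101 and 55.4 CPM versus 44.6, 48.8 and 51.4 CPM, so that control 2 lay close to the mutants (log2 fold change −0.70, and −0.20 without control 1). Among 6 genes of the RICTOR-containing complex and mTOR assembly, 2 rose, including Prr5l, with 37.8 and 48.9 CPM versus 52.9, 67.9 and 70.0 CPM (log2 fold change 0.55). Of 24 amino acid sensing genes, 2 rose and none fell at an unadjusted p-value under 0.05 in edgeR's quasi-likelihood test, or 8.33%, which is below the 12.4% of all genes tested.

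Of 20 genes at the output of mTOR, 4 fell and 1 rose. Eef2, the elongation factor, had 2549 and 2304 CPM in controls and 1878, 1602 and 1555 CPM in mutants, with the controls close together (log2 fold change −0.53, standard error 0.14). Eif4b, which aids the helicase of the cap complex, fell by 0.46 and Maf1, a repressor of RNA polymerase III, by 0.36 on the log2 scale (for Maf1 a log2 fold change of −0.20 without control 1). Lpin1, a lipid phosphatase and coregulator, fell by 0.90, or 0.35 without control 1, and Eif4g3, a scaffold of the cap complex, rose by a log2 fold change of 0.27. Of 12 AMPK partners and kinases, Stradb, a pseudokinase partner of LKB1, fell by 0.65 on the log2 scale.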

How the data were processed

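RNA was measured in 5 libraries (2 control, 3 Igf1r-deleted), with groups and replicate numbers from the sample titles. The authors used Trim Galore for trimming and Bowtie2 for alignment to mm10, and deposited raw counts per gene symbol with no scaling. The annotation, alignment settings and use of strand are not given in the sources used here, and the submitters' Cufflinks values were not used. All per-library columns were used.

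The test was edgeR's two-sided quasi-likelihood F test (edgeR 4.0.16 in R 4.3.3, with limma 3.58.1), fitted to 15298 genes that passed filterByExpr, with TMM scaling and a term for genotype. Their p-values were adjusted by Benjamini-Hochberg. A prior count of 2 was added for log2 CPM. Intervals are 95% intervals of the fit. The 37 genes and all lists were chosen with earlier results of these data known. All 37 are named, and of the further pathway genes the 20 with the smallest p-values below 0.05. The rule adapted from the study's methods, with edgeR in place of DESeq and CPM in place of FPKM, required a log2 fold change of 0.5 or more in size, an unadjusted p under 0.05 and a CPM above 1 in 50% or more of a genotype's libraries.

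GENCODE M21 (mm10) gave exon lengths, overlaps and 31-base sequences shared between genes, and 22121 of the 23478 symbols were found in it. Promoter sequences came from RefSeq on GRCm38.p6. Ratios and shares used an exact permutation test over 10 splits. Each of the 37 genes had at least 115 counts in every library. How much of the error came from counting and how much from differences between libraries was not separated. Alternatives were DESeq2 1.42.0, other scalings and filters, limma voom, length and GC offsets, Xist as a covariate, a replicate block and leaving out each library.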

Additional observations from a re-analysis of the deposited data

How the results depend on the processing

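The number of all genes at an adjusted p under 0.05 was 0 with edgeR's quasi-likelihood test, 200 with DESeq2's Wald test and 136 with a replicate block, and 0 to 45 as each library was left out. Over the 37 genes the count was 2 with DESeq2, 1 with the replicate block (Ipmk, edgeR's quasi-likelihood test, Benjamini-Hochberg adjusted p = 0.0412) and 0 to 2 with a library left out, and over the 128 further pathway genes 7, 1 and 0 to 4. The replicate numbers could not be taken to pair the libraries, since only numbers 1 and 2 are shared and the labels name no shared litter. Deviations from the group means correlated at 0.208 and 0.121 between equal numbers and at −0.121 and −0.208 between crossed numbers. With 2 controls their deviations mirror each other, so these correlations cannot decide whether the libraries were paired. At an unadjusted p under 0.05, leaving out a library gave 433 to 3183 of all genes, 2 to 9 of the 37 (lowest without control 1) and 6 to 31 of the 128. The rule adapted from the study's methods, met by 891 genes, 5 of the 37 and 15 of the 128, was then met by 227 to 1714, 1 to 7 and 2 to 24. Scaling by library totals moved the median of all genes to 0.088 and that of the 37 to 0.11, and 3 lower and 5 higher of the 37 passed, against 4 and 2 with TMM. The cause was not tested.

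With a library left out, the difference in log2 ratio ran from −1.23 to −0.59 for Pik3r1/Pik3r2, −2.06 to −0.71 for Pik3r1/Pik3r3, −0.15 to −0.026 for Akt1/Akt2 and −0.73 to −0.18 for Prkaa1/Prkaa2. Of the 37 genes 21 kept their direction throughout, including the 6 that passed. Signs turned with library totals for Akt1 (0.025), Pdpk1 (0.032), Prkaa1 (0.0026) and Rictor (0.0035), with length and GC offsets for Akt2 (−0.018), Gsk3a (−0.0034), Mlst8 (−0.0080), Rheb (−0.0050), Rptor (−0.039) and Tsc2 (−0.052), with Xist as a covariate for Pik3ca (−0.024), Pik3cb (0.099) and Rheb (−0.086), and with the replicate block for Pik3ca (−0.039) and Pik3cb (0.087). Leaving out a library gave ranges of −0.016 to 0.073 for Akt2, −0.079 to 0.14 for Gsk3a, −0.13 to 0.66 for Inpp4b, −0.11 to 0.15 for Mlst8, −0.023 to 0.22 for Phlpp1, −0.042 to 0.11 for Pik3ca, −0.32 to 0.088 for Pik3cb, −0.17 to 0.016 for Prkaa1, −0.073 to 0.11 for Rheb, −0.23 to 0.085 for Rictor, −0.029 to 0.083 for Rptor, −0.018 to 0.096 for Shc1, −0.32 to 0.062 for Tsc1 and −0.034 to 0.052 for Tsc2.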
